A study of Mus musculus and Rattus norvegicus with 24 samples.

Results

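The 12 sham-operated animals of a stroke study were compared over time, with 6 h after surgery set against 2 h after surgery in mice and in rats. They make up 12 of the 24 arrays of the series, chosen as every sample whose title reads sham, and the remaining 12 came from animals whose middle cerebral artery was blocked for good (pMCAO). The 4 sham groups held 3 animals each: mice at 6 h, mice at 2 h, rats at 6 h and rats at 2 h. The mice were adult male C57BL/6 of 8 to 10 weeks and the rats adult male Sprague-Dawley of 8 to 12 weeks, all kept on a 12 h light cycle. All were anaesthetised with isoflurane and went through the stroke operation with the artery not occluded, on the right side in mice and on the left in rats. A 3 by 3 mm piece was cut from the operated side, from the area that corresponds to the penumbra, the rim of a stroke. RNA with an integrity number above 7.5 was hybridised to whole-transcript arrays, 1 animal per array, so the number of arrays limits the precision.

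As a model, the sham groups share anaesthesia, surgery and recovery, and no unoperated animal is among the arrays used here. The hour of the day at which tissue was taken is not given in the labels, so the time after surgery and the time of day cannot be told apart. Values below are log2 signals minus the median of their own array, written "over the array median", and a change is the 6 h mean minus the 2 h mean on that scale, with its standard error. The tissue carried neuronal transcripts in every animal. Snap25, a synaptic membrane-fusion protein, lay 6.66 to 6.70 over the array median in mice at 6 h and 6.85 to 6.93 at 2 h, and in rats 6.88 to 7.07 at 6 h and 6.65 to 6.80 at 2 h. In bulk tissue, fewer cells of a type and less RNA per cell cannot be told apart.

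Surgery and anaesthesia raise adrenal glucocorticoid, which enters brain cells and binds the glucocorticoid receptor, a transcription factor that switches on genes of fuel use, ion transport and feedback on inflammation. Handling, wound pain and waking activity also switch on immediate early genes, whose transcripts appear within minutes of synaptic activity or growth signals and decay again within hours. Another programme, the circadian clock, runs in brain cells as a feedback loop in which the Per and Cry proteins hold back their own activators, and glucocorticoid acts on part of it. Genes of these 3 programmes move in most tissues within hours of an intervention.

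The deposited values of the 2 times did not have the same distribution. Array medians were 5.92 to 5.93 in mice at 6 h and 6.03 to 6.04 at 2 h, and 5.82 to 5.87 in rats at 6 h and 6.67 to 6.74 at 2 h. How far array processing differed between the times cannot be told apart from time itself, so changes common to all genes were removed by median centring. Many counts are also given after quantile normalization, and a count without such a value is with centring only. In mice 1481 genes were higher and 2724 lower at 6 h than at 2 h, 19.0% of 22180 tested by limma at an adjusted p of 0.05, and after quantile normalization 1210 were higher (5.46%) and 1178 lower (5.31%), 10.8% in all. In rats 2215 were higher and 1589 lower, 20.9% of 18166, and after quantile normalization 2057 were higher (11.3%) and 1409 lower (7.76%), 19.1% in all. The shares of higher calls were 35.2% with centring and 50.7% with quantile normalization in mice, and 58.2% and 59.3% in rats. Most changes were small: 25 mouse genes were higher and 22 lower by 1 log2 unit or more, and 16 rat genes were higher and 43 lower. Leaving out 1 sham array at a time gave 1124 to 2059 calls in mice, fewest without the 2 h replicate 2, and 1831 to 3657 in rats, again fewest without the 2 h replicate 2. In mice all 6 such counts were more than 1.5 times below the full count, with 2038 without the 2 h replicate 1, 1447 without the 2 h replicate 3, and 1890, 1754 and 2059 without the 6 h replicates 1, 2 and 3. In rats the count without the 2 h replicate 3 was 2143.

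Few genes changed past the threshold in both species, and fewer of them in the same direction than in opposite ones. Of 14204 symbols matched between the tables, 2745 passed in mice and 2649 in rats. Of these, 500 passed in both: 217 moved alike, 118 of them higher at 6 h and 99 lower, and 283 moved in opposite directions. Whether 500 exceeds the overlap of unrelated sets of these sizes was not tested. The alike genes were 1.53% of the matched symbols, 7.91% of the mouse calls and 8.19% of the rat calls, and the opposite genes were 1.99%. The balance between them turned with the scaling. After quantile normalization 183 genes moved alike (121 higher, 62 lower) and 91 oppositely. A set of 128 genes (84 higher, 44 lower, 0.901%) moved alike under both scalings. Across genes, the changes of the species had a Pearson correlation of 0.011, or 0.074 after quantile normalization, over 14204 genes that share the same arrays and are not independent. The change itself differed between the species for 4204 genes (29.6%) in a test of the difference. The mouse change was the lower one for 3292 of them and the higher one for 912, and for 1747 and 1008 after quantile normalization. The count of alike genes ranged from 67 to 197 when 1 array was left out. It was 109, 67 and 83 without the mouse 2 h replicates 1, 2 and 3, and 106, 90 and 111 without the mouse 6 h replicates 1, 2 and 3. It was 131 and 119 without the rat 2 h replicates 2 and 3.

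**Figure D1:**
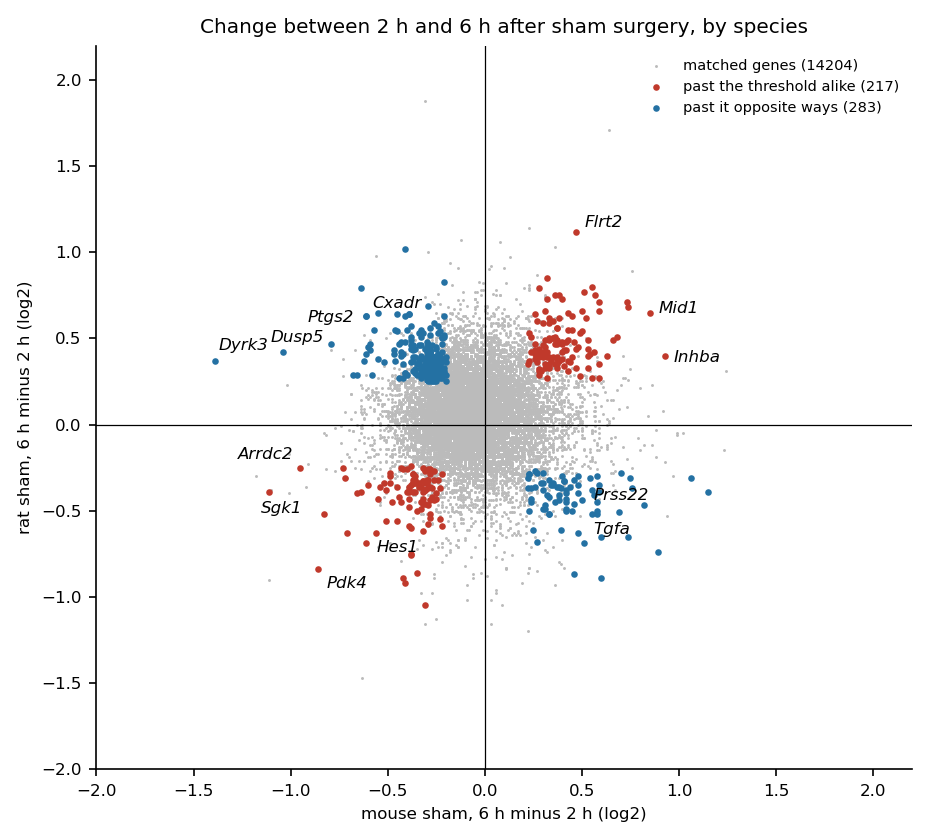
Change of sham brain at 6 h relative to 2 h (6 h minus 2 h, log2, median-centred) in mouse on the x axis and in rat on the y axis, 1 point per matched gene (14204). The 217 genes past the threshold in both species in the same direction are red, the 283 in opposite directions blue; the correlation across genes is 0.011, with Pdk4, Sgk1 and Hes1 low in both species and Dyrk3, Dusp5 and Cxadr low in mouse and high in rat.

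Ranked by the smaller of their changes in mouse and rat, the shared decreases named here were led by Pdk4, the kinase that shuts off pyruvate dehydrogenase and so spares glucose. In mice Pdk4 lay 0.22, 0.57 and 0.63 over the array median at 6 h, against 1.30, 1.47 and 1.24 at 2 h. In rats it lay 0.69, 0.48 and 0.73 at 6 h, against 1.40, 1.25 and 1.78 at 2 h. All 6 h animals were below all 2 h animals in both species, a separation that 41.1% of mouse and 40.4% of rat genes also had. Pdk4 fell by 0.86 ± 0.12 in mice (SE, limma adjusted p = 0.00994) and by 0.84 ± 0.13 in rats (adjusted p = 0.00403), a difference between species of -0.02 ± 0.18.

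Hes1, the transcriptional repressor that Notch receptors switch on, was the second of the shared decreases. It lay 0.91, 0.84 and 0.65 over the array median in mice at 6 h, against 1.60, 1.46 and 1.18 at 2 h. In rats it lay 0.73, 0.83 and 0.63 at 6 h, against 1.35, 1.40 and 1.51 at 2 h. The groups did not overlap in either species, and Hes1 fell by 0.61 ± 0.12 in mice (limma adjusted p = 0.0201) and by 0.69 ± 0.09 in rats (adjusted p = 0.00182). Its relative Hes3 fell by 0.33 in mice and 0.36 in rats, while Numb, an inhibitor of Notch, rose by 0.26 and 0.38. Of the 20 measured Notch pathway genes in mice 1 was higher and 3 lower, and of the 19 in rats 4 were higher and 2 lower, against 6.68% higher and 12.3% lower over all mouse genes and 12.2% higher and 8.75% lower over all rat genes.

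Sgk1, a kinase named for its induction by serum and glucocorticoid and a regulator of sodium channels, fell in both species but more in mice. Its values in mice were 2.27, 2.26 and 2.26 over the array median at 6 h, against 3.49, 3.33 and 3.31 at 2 h. In rats they were 3.43, 3.53 and 3.78 at 6 h, against 4.02, 3.86 and 4.02 at 2 h. The 3 mouse arrays at 6 h were nearly equal and more than 1 log2 unit below those at 2 h. The change was -1.11 ± 0.07 in mice (limma adjusted p = 0.00494) and -0.39 ± 0.10 in rats (adjusted p = 0.0284), and it differed between the species by -0.73. Arrdc2, an arrestin-domain protein of membrane traffic, had the same pattern, with -0.95 ± 0.09 in mice (adjusted p = 0.00527) and -0.25 ± 0.08 in rats (adjusted p = 0.0456). The Arrdc2 rat call was lost whichever sham array was left out (limma adjusted p up to 0.138). The Sgk1 rat call held only when the 6 h replicate 3 was the array left out (limma adjusted p otherwise up to 0.0897). Gadd45b, a stress and activity gene tied to DNA demethylation, fell by 0.60 in mice and 0.35 in rats.

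Other genes that fell alike had varied roles. Usp36, a deubiquitinase of the nucleolus, fell by 0.51 ± 0.06 in mice and 0.38 ± 0.08 in rats, with no overlap of times in either. Tma16, a factor of large ribosomal subunit assembly, fell by 0.66 and 0.40, and Dnajc2, a chaperone partner on the ribosome, by 0.45 and 0.36. Smurf1, a ubiquitin ligase that limits BMP and TGF-beta signalling, fell by 0.39 and 0.38, and Rap2c, a small Ras-like GTPase, by 0.39 and 0.48. Ofd1 and Cfap36, proteins of cilia and centrioles, fell by 0.37 and 0.36 in mice and by 0.39 each in rats. Bcap29, of the endoplasmic reticulum, fell by 0.44 and 0.42, and Cntnap5b, a neuronal contactin-associated protein, by 0.39 and 0.59. Cycs, the electron carrier cytochrome c, fell by 0.23 and 0.55, with the mouse call lost after quantile normalization.

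Among the shared increases, Flrt2, a membrane protein that guides axons and cell migration, was higher at 6 h in every animal. It lay 3.42, 3.64 and 3.64 over the array median in mice at 6 h, against 3.06, 3.05 and 3.19 at 2 h. In rats it lay 3.73, 3.97 and 3.79 at 6 h, against 2.93, 2.58 and 2.62 at 2 h. Neither species had overlapping groups, and the increase was larger in rats, 1.12 ± 0.11 (limma adjusted p = 0.000732), than in mice, 0.47 ± 0.08 (adjusted p = 0.0164), a difference of -0.65 between mouse and rat.

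Mid1, a ubiquitin ligase on microtubules, led the shared increases named here by the same ranking. Its values were 2.07, 2.78 and 2.46 over the array median in mice at 6 h, against 1.61, 1.58 and 1.57 at 2 h. In rats they were 1.15, 1.07 and 0.96 at 6 h, against 0.52, 0.08 and 0.64 at 2 h. The mouse arrays at 6 h spread widely but stayed above those at 2 h, and Mid1 rose by 0.85 ± 0.16 in mice (limma adjusted p = 0.0187) and 0.65 ± 0.14 in rats (adjusted p = 0.0113).

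Inhba, the subunit that forms activin A, a growth factor of the TGF-beta family that neurons make with activity, also rose in both. It lay 0.70, 0.74 and 0.84 over the array median in mice at 6 h, against -0.44, -0.09 and 0.03 at 2 h. In rats it lay 0.88, 0.90 and 0.78 at 6 h, against 0.48, 0.47 and 0.40 at 2 h. The groups stood apart in both species, with changes of 0.93 ± 0.12 in mice (limma adjusted p = 0.00915) and 0.40 ± 0.08 in rats (adjusted p = 0.00886). Klf5, a zinc-finger transcription factor of growth and vascular remodelling, rose by 0.45 ± 0.05 and 0.55 ± 0.09, with 3 nearly equal mouse arrays per time: 1.33, 1.36 and 1.35 at 6 h, against 0.88, 0.92 and 0.89 at 2 h.

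The remaining shared increases were in genes of varied roles. Iscu, the scaffold on which iron-sulfur clusters are built, rose by 0.42 in mice and 0.43 in rats, and Mrps12, a mitochondrial ribosomal protein, by 0.37 and 0.35. Tti1, a partner of the large PI3K-like kinases, rose by 0.50 and 0.66, Apip, an enzyme of methionine salvage, by 0.40 and 0.38, Cnpy4 by 0.38 and 0.37, and Gja6, a connexin, by 0.43 and 0.55. P4ha1, a collagen prolyl hydroxylase that hypoxia induces, rose by 0.38 and 0.62. Slco1a4, an organic anion transporter of brain endothelium, rose by 0.36 and 0.47, and Kcnv1, a modulatory potassium channel subunit, by 0.35 and 0.60. Il6, an inflammatory cytokine, and S100a8, a calcium-binding protein of neutrophils, passed in both species (0.36 and 0.75; 0.68 and 0.51), but every array had both genes below its array median, where the signal of an unexpressed gene also lies, and both mouse calls were lost after quantile normalization (adjusted p = 0.0788 and 0.0546). Of the 24 genes named by size of shared change, 8 kept both calls whichever sham array was left out (Pdk4, Usp36, Tma16, Rap2c, Inhba, Klf5, Iscu and Tti1), and 16 lost a call in at least 1 species, with adjusted p up to 0.0987.

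**Figure D2:**
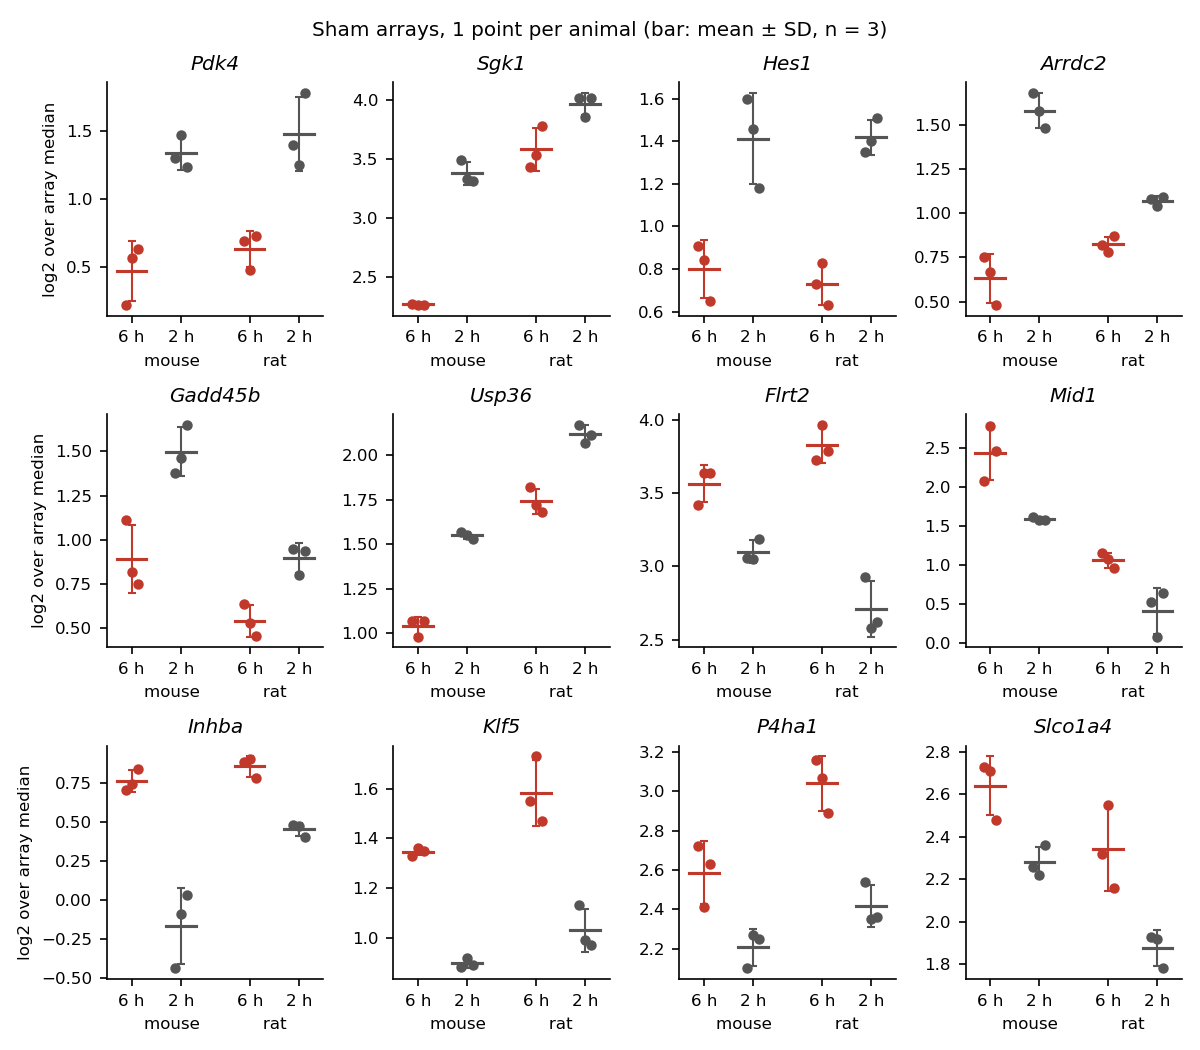
Level of 12 genes that moved alike, in log2 over the array median, with 1 point per animal and the mean ± SD of 3 animals, at 6 h (red) left of 2 h (grey) for mouse and for rat. The times do not overlap for any of the 12 in either species, with Pdk4, Sgk1, Hes1, Arrdc2, Gadd45b and Usp36 lower at 6 h and the other 6 higher. The 12 were chosen as past the threshold in both species, which favours such separation, and 41.1% of all mouse and 40.4% of all rat genes also had it.

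Of the 283 genes that moved in opposite directions, 207 were lower in mice and higher in rats at 6 h and 76 the other way, but this split depended on the scaling: it was 49 and 42 after quantile normalization and 49 and 56 after cyclic loess. Among the 10 named here, the change differed most between the species for Dusp5 (-1.47), taken up below, and next for Cxadr (-1.24). Cxadr is a cell-adhesion protein at which coxsackieviruses and adenoviruses enter. In mice it lay 0.92, 0.68 and 0.95 over the array median at 6 h, against 1.44, 1.33 and 1.61 at 2 h. In rats it lay 2.95, 3.12 and 2.75 at 6 h, against 2.45, 2.31 and 2.17 at 2 h. It fell by 0.61 ± 0.10 in mice (limma adjusted p = 0.0145) and rose by 0.63 ± 0.11 in rats (adjusted p = 0.00632). Abcg2, a drug-efflux transporter of the blood-brain barrier, changed by -0.39 in mice and 0.64 in rats, and Fzd4, a Wnt and norrin receptor of brain vessels, by -0.59 and 0.43. Vps29, of the retromer that recycles endosomal cargo, changed by -0.39 and 0.64. In the other direction, Tgfa, a ligand of the epidermal growth factor receptor, rose by 0.58 in mice and fell by 0.50 in rats, and the protease Prss22 rose by 0.58 and fell by 0.52. Rbm41 rose by 0.23 and fell by 0.50, the platelet glycoprotein Gp9 rose by 0.26 and fell by 0.36, and the neurofilament gene Nefm rose by 0.30 and fell by 0.28. Of the 10 named in this group, Abcg2, Cxadr, Dusp5 and Vps29 kept both calls with any 1 array left out, and the other 6 did not, with adjusted p up to 0.126. By level, mouse genes at or above the array median had a median change of -0.09 and those below it 0.04, and rat genes 0.08 and -0.01. After quantile normalization these medians were -0.01, 0.01, 0.03 and 0.03.

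Most glucocorticoid-responsive genes fell in mice. Of 20 measured members 13 were lower at 6 h than at 2 h and 0 higher (7 not past the threshold by limma), against 12.3% lower over all mouse genes, and the list's median change was -0.41 against -0.05 over all genes. The mean of its members per array was 1.46 to 1.48 over the array median in the 6 h mice and 1.90 to 1.94 in the 2 h mice. After quantile normalization 10 of 20 were lower and 0 higher, and 9 to 11 were lower when 1 sham array was left out. In rats 3 of 17 were higher and 3 lower (2 and 4 after quantile normalization), with a median of -0.09 against 0.05 over all genes. The member means overlapped, at 1.78 to 1.84 in the 6 h rats and 1.74 to 1.96 in the 2 h rats. The rat count fell to 1 or 2 in each direction when 1 array was left out.

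Beside Pdk4, Sgk1 and Arrdc2, the mouse decreases included feedback inhibitors of inflammation and growth signals. Nfkbia, the inhibitor that holds NF-kB in the cytoplasm, lay 1.47, 1.37 and 1.49 over the array median in mice at 6 h, against 2.51, 2.39 and 2.72 at 2 h. The groups stood far apart, with a change of -1.10 ± 0.09 (limma adjusted p = 0.00521). In rats Nfkbia lay 2.15, 1.94 and 2.15 at 6 h, against 2.81, 2.24 and 2.33 at 2 h, a change of -0.38 ± 0.14 that did not pass (adjusted p = 0.0827). Errfi1, a brake on the epidermal growth factor receptor, fell in mice by 0.74, and Cdkn1a, the cell-cycle inhibitor p21, by 0.60. Gjb6, the astrocyte connexin 30, fell by 0.58 in mice and rose by 0.29 in rats. Its rat call was lost after quantile normalization and whichever sham array was left out (limma adjusted p up to 0.127). Ddit4, an inhibitor of mTOR, fell in mice by 0.54, Zbtb16 by 0.45, Klf9, a transcription factor of hormone responses, by 0.37, Fkbp5, the co-chaperone that dampens the receptor itself, by 0.36, and Hif3a by 0.34. Tsc22d3, a direct target of the receptor, did not pass in either species, at 0.08 in mice and -0.07 in rats. In rats Sult1a1, a sulfotransferase, rose by 1.06 and Plin4, a lipid-droplet protein, by 0.28. In mice 9 of the 13 calls held with any array left out and in rats 2 of the 6, Pdk4 and Sult1a1.

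Animals with an occluded artery gave other counts for these genes over the same hours. Among the pMCAO mice 1 member was higher at 6 h and 4 lower, with a median change of -0.03, against 8.46% higher and 16.7% lower over all mouse genes. Among the pMCAO rats 9 were higher and 0 lower, with a median of 0.49, against 10.3% higher and 8.04% lower over all rat genes. Pdk4 changed by 0.14 in pMCAO mice and 0.10 in pMCAO rats, neither past the threshold, and Sgk1 by -0.47 in mice, which passed, and 0.18 in rats, which did not. Sham and pMCAO animals are separate, and the difference between their changes was not tested.

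**Figure D3:**
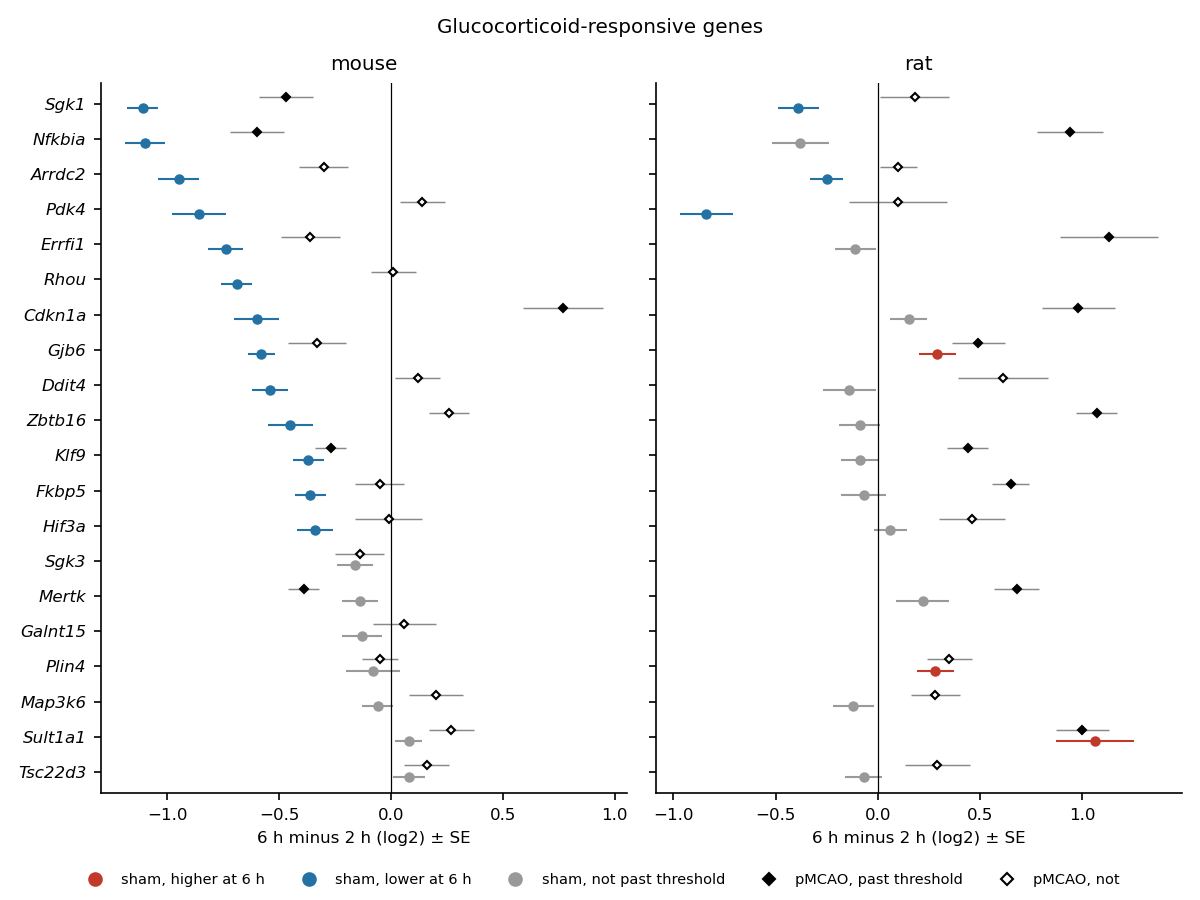
Change of each glucocorticoid-responsive gene at 6 h relative to 2 h (log2, ± SE, 3 animals per time), mouse left and rat right. Circles are sham (red higher, blue lower, grey not past the threshold) and diamonds pMCAO (filled past the threshold); 13 of the 20 mouse sham circles are blue and none is red, while in rat 3 are red and 3 blue.

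The promoters of Sgk1 and Pdk4 are shown because these genes fell in both species and both are known targets of the glucocorticoid receptor. Windows are 300 bases long and end just after the annotated start, in mouse RefSeq on GRCm38.p6, 5′ to 3′ on the gene's strand, with matches to the motifs searched in capitals. These were AGAACA, the core sequence that 1 copy of the receptor binds, the E-box CACGTG, the D-box TTATGTAA and the cAMP response element TGACGTCA, each on both strands.
Sgk1, chr10:21993640-21993939, + strand: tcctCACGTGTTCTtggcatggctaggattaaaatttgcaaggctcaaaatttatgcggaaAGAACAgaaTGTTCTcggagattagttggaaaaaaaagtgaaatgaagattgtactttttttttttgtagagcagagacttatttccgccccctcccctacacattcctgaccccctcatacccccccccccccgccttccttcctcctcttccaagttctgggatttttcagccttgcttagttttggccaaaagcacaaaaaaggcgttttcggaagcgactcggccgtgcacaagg
Pdk4, chr6:5496229-5496528, - strand: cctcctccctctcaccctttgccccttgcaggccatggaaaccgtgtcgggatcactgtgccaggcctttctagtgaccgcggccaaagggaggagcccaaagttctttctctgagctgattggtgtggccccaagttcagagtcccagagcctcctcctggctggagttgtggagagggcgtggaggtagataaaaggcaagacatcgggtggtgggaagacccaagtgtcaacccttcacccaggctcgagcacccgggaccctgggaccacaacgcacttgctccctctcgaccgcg
The Sgk1 window holds 1 E-box and 3 receptor motifs, the first of which overlaps the E-box while the other 2 face each other across 3 bases. That palindrome, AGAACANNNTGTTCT, was searched for after it was seen here and is in 3 of 32851 mouse promoter windows (0.00913%). The receptor motif alone is in 19.0% of windows, the E-box in 7.15%, the cAMP response element in 1.79% and the D-box in 0.938%. Sgk1 has 6 annotated windows, of which 3 hold a receptor motif. Pdk4 and Arrdc2 have 1 window each, with 0 matches to any of these motifs, which says nothing of sites elsewhere.

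The immediate early genes that passed were lower at 6 h in mice and mostly higher in rats. In mice 10 of 41 measured members were lower and 0 higher, with a median change of -0.33, and in rats 9 of 39 were higher and 2 lower, with a median of 0.16. The backgrounds were 12.3% lower in mice, and 12.2% higher and 8.75% lower in rats. After quantile normalization 6 mouse members were lower and 1 higher, and 8 rat members higher and 2 lower. The counts rested on single arrays: with 1 array left out, 3 to 11 mouse members were lower, 3 without the 6 h replicate 3 and 4 without the 2 h replicate 2 or 3. In rats 4 to 12 were higher, 4 without the 2 h replicate 2 or 3 and 5 without the 6 h replicate 1. Member means per array were 1.42 to 1.74 over the array median in the 6 h mice and 1.78 to 1.98 in the 2 h mice, and 1.19 to 1.42 in the 6 h rats and 0.99 to 1.31 in the 2 h rats, which overlap.

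Npas4, a transcription factor that neurons make only when calcium enters with synaptic activity, had the largest rat increase of the list. It lay 2.59, 2.05 and 2.13 over the array median in rats at 6 h, against 0.77, 0.20 and 0.16 at 2 h. In mice it lay 1.94, 2.30 and 1.88 at 6 h, against 2.31, 2.50 and 2.23 at 2 h. The rat times were more than 1 log2 unit apart in every pair of animals, whereas the mouse times overlapped narrowly. Npas4 changed by -0.31 in mice (limma adjusted p = 0.127) and by 1.88 ± 0.18 in rats (adjusted p = 0.000698), a difference of -2.19 between the species (adjusted p = 6.59e-05). Nr4a3, an orphan nuclear receptor induced with activity, changed by -0.19 in mice and rose by 0.68 in rats.

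Dusp5, a nuclear phosphatase that switches off ERK, moved in opposite directions. It lay 1.47, 0.91 and 1.16 over the array median in mice at 6 h, against 2.23, 2.34 and 2.10 at 2 h. In rats it lay 0.37, 0.28 and 0.35 at 6 h, against -0.14, -0.04 and -0.09 at 2 h. Neither species overlapped, and Dusp5 fell by 1.04 ± 0.14 in mice (limma adjusted p = 0.00958) and rose by 0.42 ± 0.08 in rats (adjusted p = 0.00700). Ptgs2, the inducible prostaglandin synthase, fell by 0.61 in mice and rose by 0.63 in rats, where the times overlapped (3.51, 3.56 and 3.08 at 6 h, against 3.20, 2.65 and 2.42 at 2 h). The rat call (limma adjusted p = 0.0438) was lost after quantile normalization (adjusted p = 0.0878) and without the 6 h replicate 1 or 2 or the 2 h replicate 2 or 3, and the mouse call without the 6 h replicate 1 or 3 or the 2 h replicate 2 or 3.

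Other mouse decreases were Gadd45g (-0.77), Ccn1, a secreted matrix protein (-0.69), Egr1 (-0.67), Sik1 (-0.65), Fosb (-0.64), Homer1, a postsynaptic scaffold (-0.50), and Zfp36, which destabilises cytokine mRNAs (-0.42). Other rat increases were Dusp6, an ERK phosphatase (0.57), Trib1 (0.53), Fosl1 (0.49), Plk2, a kinase of synaptic scaling (0.46), and Klf6 (0.46), while Ier5 fell by 0.42. Fos, the standard marker of neuronal activity, did not pass in either species, at -0.59 in mice and 0.49 in rats, and the change differed by -1.09 between them. Arc, a synaptic immediate early gene, was at -0.59 and 0.16, and Bdnf, a neurotrophin, at 0.26 and -0.14, none past the threshold. The change differed between species for 18 list members. Gadd45b was the 1 member that moved alike. With any array left out, 3 mouse calls held (Dusp5, Ccn1 and Gadd45g) and 4 rat calls (Npas4, Nr4a3, Dusp5 and Plk2). Over the same hours in pMCAO animals, 6 members were higher and 12 lower in mice (8.46% and 16.7% over all genes) and 27 higher and 0 lower in rats (10.3% and 8.04%), with medians of -0.27 and 0.93.

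**Figure D4:**
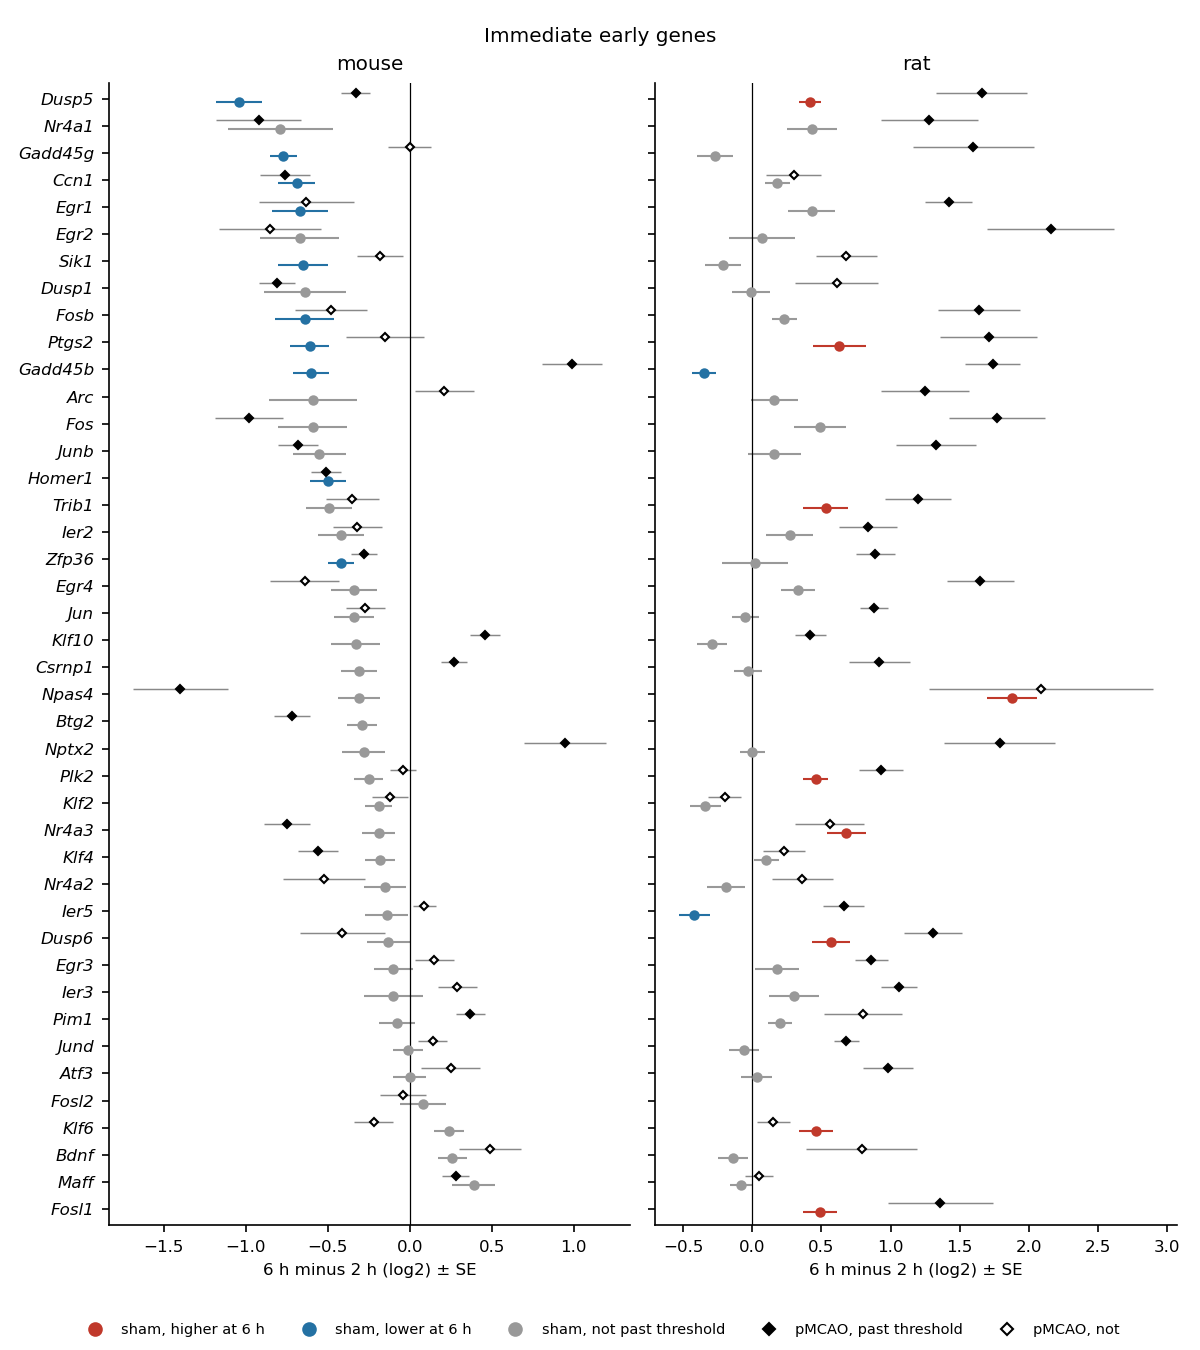
Change of each immediate early gene at 6 h relative to 2 h (log2, ± SE, 3 animals per time), mouse left and rat right, circles for sham and diamonds for pMCAO with colours and fills as in the plot of glucocorticoid-responsive genes. Mouse sham circles lie mostly below 0 (36 of 41 negative) and rat sham circles mostly above it (25 of 39 positive), with rat pMCAO diamonds further above.

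Clock genes had more calls in rats than in mice. In rats 7 of 21 measured members were higher at 6 h and 0 lower, with a median of 0.16, against 12.2% higher and 8.75% lower over all rat genes, and 4 to 6 were higher with 1 array left out, 4 without the 2 h replicate 2. In mice 0 were higher and 1 lower by limma, with a median of -0.11, against 6.68% higher and 12.3% lower over all mouse genes. After quantile normalization 0 mouse members passed in either direction, and 4 rat members were higher and 1 lower. Cry1, a repressor of the clock loop, lay 1.37, 1.25 and 0.99 over the array median in rats at 6 h, against 0.58, 0.45 and 0.67 at 2 h. In mice Cry1 lay 1.12, 0.93 and 1.07 at 6 h, against 0.94, 1.05 and 0.99 at 2 h, and the times overlapped. The change was 0.05 in mice (limma adjusted p = 0.674) and 0.64 ± 0.11 in rats (adjusted p = 0.00559), a difference of -0.59.

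Per2, the partner of Cry1 in that repression, was measured by a cluster of its own in rats only, where it lay 2.23, 2.00 and 1.93 at 6 h, against 1.71, 1.11 and 1.29 at 2 h. It rose by 0.68 ± 0.15 (limma adjusted p = 0.0121) with no overlap. Dbp, a transcription factor under direct clock control, changed by -0.11 in mice and rose by 0.55 in rats, and Csnk1e, a kinase that marks Per proteins for decay, changed by -0.09 and rose by 0.52. Timeless changed by -0.11 and rose by 0.55, Nr1d1, the repressor REV-ERB alpha, changed by -0.11 and rose by 0.34, and Rorb changed by -0.11 and rose by 0.27. The rat calls of Dbp, Nr1d1 and Rorb were lost after quantile normalization. The mouse decrease was in Bhlhe40, a repressor of clock and activity genes, which fell by 0.48 and was at 0.24 in rats, not past the threshold. With any array left out, 4 of the 7 rat calls held (Cry1, Dbp, Csnk1e and Timeless), and the mouse call of Bhlhe40 did not. Per1, a partner of Per2, was at -0.60 in mice (limma adjusted p = 0.0548) and -0.33 in rats (adjusted p = 0.0736), neither past the threshold, though in rats it passed after quantile normalization (-0.40, adjusted p = 0.0324). The positive arm did not pass in either species: Clock was at -0.03 and 0.05, Npas2 at -0.12 and 0.08, and the activator named Arntl on the mouse array and Bmal1 on the rat array at -0.18 and -0.24. Of 18 members matched by symbol, 0 moved alike and 8 changed differently between the species. In pMCAO animals over the same hours 0 were higher and 8 lower in mice (8.46% and 16.7% over all genes), and 10 higher and 0 lower in rats (10.3% and 8.04%).

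These genes led the changes within each species, among genes at or above the array median that passed under both scalings. In mice Dyrk3, a kinase of stress granules, lay 0.41, 0.28 and -0.08 over the array median at 6 h, against 1.31, 1.77 and 1.70 at 2 h, and it fell by 1.39 ± 0.16 (limma adjusted p = 0.00781) while rising by 0.37 in rats. Txnip, the thioredoxin inhibitor that glucose induces, lay 1.04, 1.19 and 0.97 in mice at 6 h, against 2.32, 2.33 and 2.08 at 2 h, with a change of -1.18 ± 0.09 (adjusted p = 0.00521), and it was at -0.30 in rats, which passed after quantile normalization (-0.37, adjusted p = 0.0454) but not with centring (adjusted p = 0.0898). Cdc42ep1, an effector of the GTPase Cdc42, rose by 0.92 and the neuropeptide receptor Qrfpr by 0.74 in mice. Erdr1 rose by 2.53 ± 0.47 in mice, but this call was lost without the 2 h replicate 2 or the 6 h replicate 2 (limma adjusted p up to 0.0509). It was also lost with trend and robust eBayes settings. In rats Tnfrsf11b, the decoy receptor osteoprotegerin, lay 2.25, 2.07 and 1.99 at 6 h, against 1.23, 0.79 and 0.87 at 2 h, a rise of 1.14 ± 0.12 (adjusted p = 0.000971). Slc19a3, the thiamine transporter, rose by 1.00 in rats, at 2.01, 1.78 and 1.48 at 6 h, against 0.67, 0.61 and 0.99 at 2 h, and stood at -0.29 in mice, not past the threshold. Cartpt, a neuropeptide of reward and feeding circuits, fell by 0.98 in rats, at -0.06, 0.41 and 0.15 at 6 h, against 1.30, 1.07 and 1.07 at 2 h. Aunip fell by 1.20 and Haus2, of the spindle augmin complex, by 0.93 in rats, as did the ribosomal and splicing gene copies Rps27a-ps12 (-1.11) and Snrpepl2 (-1.09), whose signals can include those of their parent genes.

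**Figure D5:**
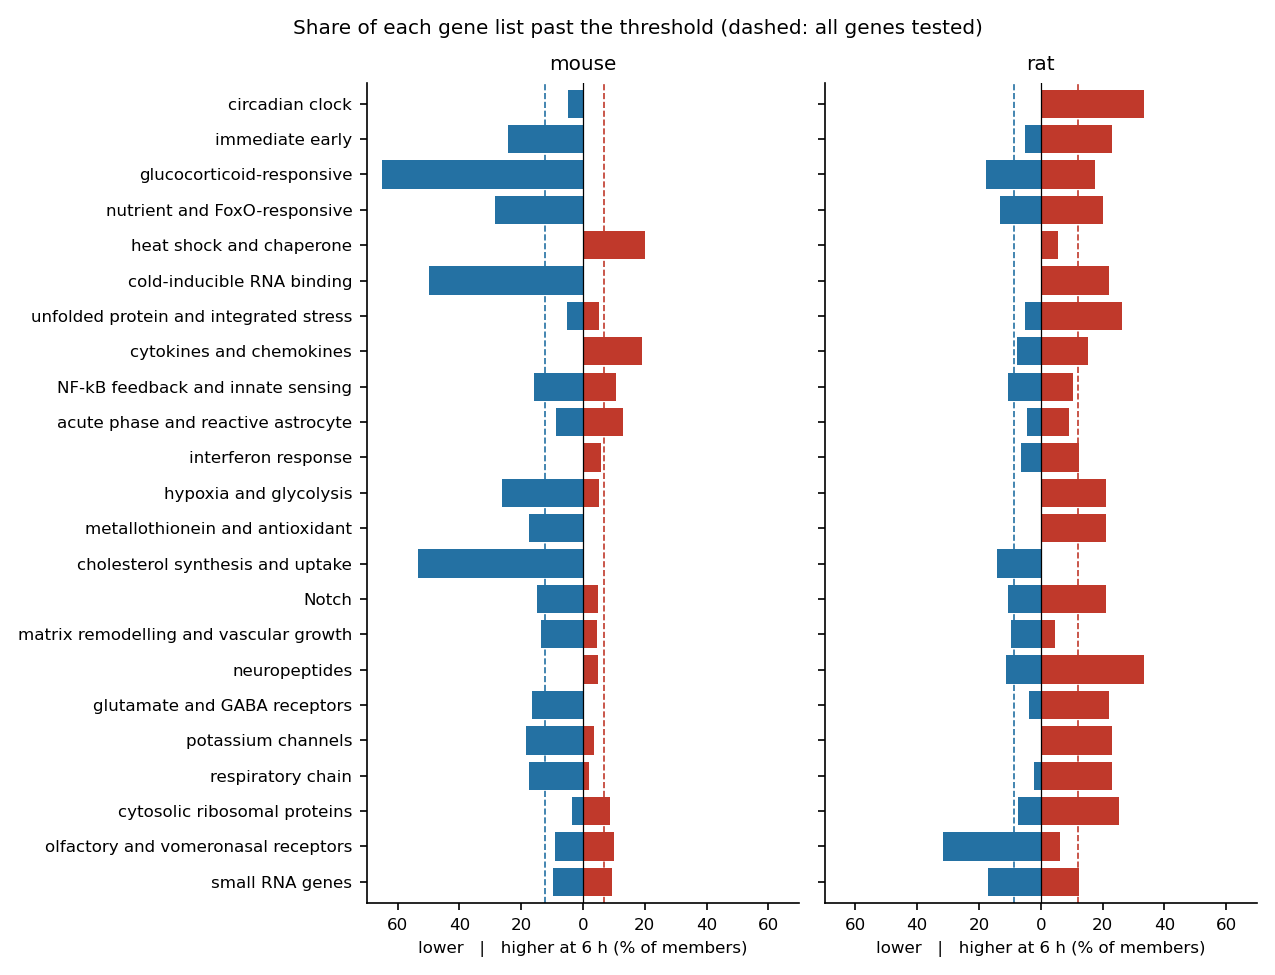
Share of measured members that were higher or lower at 6 h than at 2 h in sham brain, in percent, for mouse and rat. Shown are the pathway lists and the lists of olfactory and vomeronasal receptor and small RNA genes, without the cell type lists. Dashed lines are the shares over all genes. Glucocorticoid-responsive, cholesterol and cold-responsive RNA binding genes stand out as lower in mouse. In rat, clock and neuropeptide genes have a large higher share, and olfactory and vomeronasal receptor genes a large lower share.

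Many of the sham changes were also seen at 6 h relative to 2 h in pMCAO animals, which share no array with the sham groups. Of the 1481 mouse genes higher in sham, 705 were also higher in pMCAO and 11 lower, and of the 2724 lower, 1463 were also lower and 14 higher. In rats the counts were 889 and 6 of 2215, and 864 and 12 of 1589. The pMCAO comparisons themselves called 25.1% of genes in mice and 18.3% in rats. Any difference in array processing between the times applies to sham and pMCAO alike. Of the genes that moved alike in both species' sham brain, 28 of 118 higher and 24 of 99 lower ones passed the same way in the pMCAO animals of both species. The share of all matched genes that did so was not counted, so these counts have no background. Within 1 species, the pMCAO shares were 8.46% higher and 16.7% lower over all mouse genes, and 10.3% higher and 8.04% lower over all rat genes. Iscu was among them, at 0.35 in pMCAO mice and 0.43 in pMCAO rats, as were Rap2c (-0.64 and -0.58), Ofd1 (-0.31 and -0.39), Bcap29 (-0.52 and -0.63) and Il6 (0.56 and 0.97). Slco1a4 moved the other way with occlusion, at -0.54 in pMCAO mice and -1.44 in pMCAO rats, both past the threshold, as did Gadd45b, at 0.99 and 1.74.

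Markers of cell types were read on the same scale, as lists of genes each type is known for, and their counts stand against 6.68% higher and 12.3% lower over all mouse genes and 12.2% higher and 8.75% lower over all rat genes. Microglial markers were higher for 1 and lower for 0 of 11 in mice, and higher for 3 and lower for 0 of 10 in rats. Their member means were 1.49 to 1.52 over the array median in the 6 h mice and 1.42 to 1.44 in the 2 h mice, and 1.40 to 1.55 in the 6 h rats and 1.17 to 1.33 in the 2 h rats. Endothelial markers were higher for 2 and lower for 1 of 11 in mice and higher for 3 of 9 in rats, with means of 1.22 to 1.47 in the 6 h mice, 1.24 to 1.35 in the 2 h mice, 1.46 to 1.83 in the 6 h rats and 1.38 to 1.58 in the 2 h rats. Neuronal markers were higher for 1 and lower for 4 of 10 in mice and higher for 3 and lower for 1 of 10 in rats, but after quantile normalization 1 of 10 passed in each. Their means were 4.72 to 4.76 in the 6 h mice, 4.87 to 4.89 in the 2 h mice, 5.15 to 5.24 in the 6 h rats and 4.97 to 5.10 in the 2 h rats. Cortical projection neuron markers were higher for 5 and lower for 0 of 9 in rats (3 and 0 after quantile normalization), with means of 3.37 to 3.60 at 6 h and 3.09 to 3.26 at 2 h. In mice they were higher for 0 and lower for 2 of 10 (0 and 1 after quantile normalization), with means of 3.25 to 3.29 at 6 h and 3.31 to 3.36 at 2 h. Oligodendrocyte markers ran lower: 2 of 11 were lower and 0 higher in mice, where all 11 changes were negative, with 0 past the threshold after quantile normalization. In rats 4 of 11 were lower and 1 higher (5 and 0 after quantile normalization). Their means were 3.08 to 3.39 in the 6 h mice, 3.38 to 3.48 in the 2 h mice, 3.99 to 4.09 in the 6 h rats and 4.14 to 4.20 in the 2 h rats. Striatal neuron markers varied among the 6 h mice, with means of 2.48, 1.79 and 2.69, against 2.16 to 2.2 in the 2 h mice, and were at 1.34 to 1.37 in the 6 h rats and 1.30 to 1.61 in the 2 h rats. The part of these shifts in the activity and clock gene changes was not tested. Choroid plexus transcripts varied by animal: Ttr, the thyroxine carrier that choroid plexus makes, lay 1.79, 4.85 and 2.02 over the array median in the 6 h mice, 6.64, 2.49 and 1.42 in the 2 h mice, 0.29, -0.20 and 0.22 in the 6 h rats and 0.21, 0.19 and 4.32 in the 2 h rats.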

How the data were processed

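The authors deposited 1 table of log2 expression values per species, 12 arrays each, made with oligo and limma per the submitters' processing notes, which give no version. How background was corrected and arrays were normalized is not given in the sources used here. Groups came from the sample titles, since a separate time label reads 2 h for all. From these values, each array was centred on its median over all clusters (41345 in mouse, 36685 in rat). The platform annotation gives 1 symbol to 23521 mouse and 18511 rat clusters, several to 1814 and 575, and none to 16010 and 17599. Each symbol kept its cluster with the highest mean over 12 arrays. limma 3.58.1 in R 4.3.3 (lmFit, eBayes) was fitted to the 6 sham arrays of a species, two-sided, with Benjamini-Hochberg adjustment over all genes tested and a threshold of 0.05. An exact permutation test of 3 against 3 cannot go below 0.1. Species were compared by the mouse change minus the rat change, divided by the combined standard error (Welch-Satterthwaite degrees of freedom), adjusted over 14204 symbols matched in upper case. pMCAO animals were fitted the same way. The fits were tested on simulated data.

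Members, gene lists and rules were chosen with earlier results of these data known. Genes were named by these rules, which leave out predicted genes, receptor families and small RNAs. The 12 largest shared changes each way were ranked by the smaller change, among genes alike under both scalings and at or above the array median. Under the same scaling and level filters, the 5 largest opposite changes each way that also passed the species difference, and the 5 largest changes each way per species, were named, with up to 4 alike members per pathway list and the members of 3 lists. At most 2.54% of clusters had identical values on any pair of sham arrays. Alternatives were other normalizations, eBayes settings, filters, a fold limit, a replicate block, all 12 arrays and leaving out each array; leaving out arrays for list counts and the palindrome were added after the data were seen.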

Additional observations from a re-analysis of the deposited data

Results flagged for a closer look

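Each gene below was taken up because its change between 6 h and 2 h differed between mouse and rat in a test of the difference, with adjusted p up to 0.0454. These were 61 of 103 matched genes named in the text, a share that the choice of names partly fixes, since some rules pick genes that differ between species. Values are the mouse change minus the rat change, in log2. Groups of 3 animals were too small for a test of single outlying samples.

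Among immediate early genes the difference was -2.19 for Npas4, -1.47 for Dusp5, -1.24 for Ptgs2, -1.22 for Nr4a1, -1.10 for Egr1, -1.09 for Fos, -1.02 for Trib1, -0.87 for Ccn1, -0.87 for Fosb and -0.87 for Nr4a3. It was -0.71 for Plk2, -0.70 for Dusp6 and -0.50 for Gadd45g, so the mouse change was the lower one for each of these. That was also the common direction over all matched genes, with the mouse change lower for 3292 of the 4204 that differed.

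Among glucocorticoid-responsive genes it was -0.98 for Sult1a1, -0.87 for Gjb6, -0.76 for Cdkn1a, -0.73 for Sgk1, -0.72 for Nfkbia, -0.70 for Arrdc2, -0.63 for Errfi1 and -0.40 for Hif3a. Among clock genes it was -0.72 for Bhlhe40, -0.67 for Dbp, -0.66 for Timeless, -0.61 for Csnk1e, -0.59 for Cry1, -0.45 for Nr1d1 and -0.38 for Rorb.

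Of the named genes that moved alike, Sgk1 (-0.73), Arrdc2 (-0.70), Flrt2 (-0.65), Il6 (-0.39), Inhba (0.52) and Cycs (0.32) still differed in size. Of those that moved in opposite directions, the difference was -1.24 for Cxadr, -1.03 for Abcg2, -1.02 for Fzd4 and -1.02 for Vps29, and 1.10 for Prss22, 1.08 for Tgfa, 0.72 for Rbm41, 0.61 for Gp9 and 0.58 for Nefm. Among the genes that led the changes within a species it was -1.76 for Dyrk3, -1.29 for Slc19a3, -0.91 for Tnfrsf11b and -0.88 for Txnip, and 1.42 for Aunip, 0.85 for Haus2, 0.83 for Cdc42ep1, 0.65 for Cartpt and 0.48 for Qrfpr.

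Of genes chosen after their values were seen, it was -0.86 for Cx3cr1, -0.83 for Clk1, -0.67 for Sst, -0.67 for Jag1, -0.66 for Cck, -0.64 for Cirbp, -0.59 for Slc17a7, -0.51 for Insig1, -0.42 for Srebf2 and -0.39 for Srsf5, and 0.58 for Hspe1.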

How the results depend on the processing

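Of 73 named mouse calls, 60 held after quantile normalization, 61 after cyclic loess, 56 with a replicate block and 66 in a fit of all 12 arrays; of 78 rat calls, 72, 70, 72 and 57 held. With each sham array left out in turn, 34 mouse and 42 rat calls held throughout. Counts then ranged from 1124 to 2059 for mouse sham, 1831 to 3657 for rat sham, 67 to 197 for genes moving alike, 49 to 292 for genes moving oppositely, 2935 to 4357 for the species difference, 2765 to 4532 for mouse pMCAO and 1539 to 2561 for rat pMCAO. Quantile normalization gave 2388 calls in mouse sham, 91 opposite genes and 2755 species differences, cyclic loess 2482, 105 and 2716, and scaling to the median absolute deviation 2713, 116 and 2703. Without centring, all-gene median changes were -0.16 in mouse and -0.81 in rat sham, against -0.05 and 0.05, and calls were 8203 (mouse sham), 8419 (mouse pMCAO), 17881 (rat sham), 17454 (rat pMCAO), 5389 (alike) and 12792 (species difference). Trend and robust eBayes gave 326 alike and 670 opposite genes. Testing genes at or above the array median, which are fewer, gave 2502 in rat sham and 2161 in rat pMCAO. A limit of 1 log2 unit left 47 in mouse sham, 73 in mouse pMCAO, 59 in rat sham, 162 in rat pMCAO, 86 species differences, and 0 alike and 0 opposite. Apart from the construction of these alternatives, the cause was not tested.

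The replicate number as a block gave 2074 calls in mouse sham, 3253 in rat sham, 1943 in rat pMCAO, 3775 in mouse pMCAO, 100 alike, 87 opposite and 3908 species differences. Deviations of same-numbered animals correlated at 0.043, 0.004 and 0.015 in mice and 0.1, -0.104 and -0.032 in rats. Pairs with different numbers ran from -0.051 to 0.036 in mice and from -0.182 to 0.224 in rats. With 3 animals per group, these values cannot tell whether same-numbered animals were handled together.

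Without centring, the rat all-gene shift turned 58 named rat changes negative. Of genes moving alike these were Mid1 (-0.22), Tti1 (-0.21), Klf5 (-0.31), Gja6 (-0.32), Iscu (-0.44), Inhba (-0.46), Apip (-0.48), P4ha1 (-0.24), Cnpy4 (-0.50), Slco1a4 (-0.40), Mrps12 (-0.51), Numb (-0.48), Kcnv1 (-0.27), Il6 (-0.12) and S100a8 (-0.35). Of the opposite genes and those leading within a species they were Cxadr (-0.24), Abcg2 (-0.22), Fzd4 (-0.43), Vps29 (-0.23), Dyrk3 (-0.49), Cdc42ep1 (-0.78) and Qrfpr (-0.61). Of glucocorticoid-responsive genes they were Cdkn1a (-0.71), Gjb6 (-0.58), Hif3a (-0.81) and Plin4 (-0.59). Of immediate early genes they were Nr4a3 (-0.18), Dusp5 (-0.44), Dusp6 (-0.30), Ptgs2 (-0.24), Egr1 (-0.43), Fosb (-0.64), Ccn1 (-0.68), Zfp36 (-0.85), Plk2 (-0.41), Trib1 (-0.34), Klf6 (-0.41), Arc (-0.71), Fosl1 (-0.38) and Nr4a1 (-0.44). Of clock genes they were Cry1 (-0.23), Per2 (-0.18), Dbp (-0.31), Nr1d1 (-0.53), Csnk1e (-0.34), Rorb (-0.59), Timeless (-0.31), Bhlhe40 (-0.63) and Clock (-0.82). Of the rest they were Srebf2 (-0.76), Cirbp (-0.70), Clk1 (-0.17), Rbm3 (-0.42), Sst (-0.12), Cck (-0.27), Cx3cr1 (-0.04), Jag1 (-0.12) and Slc17a7 (-0.54). In mice Cycs was at 0.02 after scaling to the median absolute deviation.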

Other observations

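The genes named in this part were chosen after their values were seen. Cholesterol synthesis and uptake genes, which brain cells use to make sterol for membranes and myelin, fell for 8 of 15 measured members in sham mice and rose for 0, and all 15 changes were negative, with a median of -0.26 against -0.05 over all genes (12.3% of which were lower). Hmgcs1, the synthase that feeds the pathway, averaged 4.31 ± 0.07 over the array median in the 6 h mice and 4.93 ± 0.03 in the 2 h mice (SD, n = 3 each), a change of -0.62 ± 0.06. Insig1, the sterol sensor that restrains it, averaged 3.22 ± 0.07 in the 6 h mice and 3.84 ± 0.09 in the 2 h mice, also a change of -0.62. The mouse count was 3 of 15 after quantile normalization and 3 to 6 with 1 array left out. In rats 2 of 14 fell, Cyp51 by 0.37 and Idi1 by 0.32, enzymes of later and earlier steps of the pathway. Of the genes listed for cold-responsive RNA binding and splicing, 4 of 8 fell in mice, among them Cirbp by 0.48 and Srsf5 by 0.57, and 2 of 9 rose in rats, the splicing kinase Clk1 by 0.70 and Rbm3 by 0.45, against 12.3% lower in mice and 12.2% higher in rats over all genes. After quantile normalization 2 of 8 were lower in mice, and 1 was higher and 1 lower of 9 in rats, where the Rbm3 call was lost. Body temperature is not given in the labels.

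Neuropeptide genes had 6 higher and 2 lower of 18 in rats, against 1 higher and 0 lower of 20 in mice, beside 12.2% higher and 8.75% lower over all rat genes and 6.68% higher and 12.3% lower over all mouse genes. Sst, the peptide of a class of inhibitory interneurons, averaged 4.06 ± 0.09 in the 6 h rats and 3.31 ± 0.13 in the 2 h rats, and Cck, another interneuron and cortical peptide, 3.67 ± 0.10 and 3.08 ± 0.14 (SD, n = 3 each). Cx3cr1, the fractalkine receptor of microglia, rose by 0.83 in rats and was at -0.03 in mice, not past the threshold. Jag1, a Notch ligand, rose by 0.75 in rats and was at 0.08 in mice, and Hspe1, a mitochondrial chaperonin, rose by 0.50 in mice and was at -0.08 in rats, neither of the smaller values passing. Slc17a7, the vesicular glutamate transporter of cortical neurons, fell by 0.26 in mice and rose by 0.33 in rats, with the mouse call lost after quantile normalization. Olfactory and vomeronasal receptor genes, which brain tissue barely expresses, were called for 138 higher and 128 lower of 1395 in mice, against 85 higher and 425 lower of 1344 in rats. With centring, the shares were 19.1% in mice, against 19.0% over all mouse genes, and 37.9% in rats, against 20.9% over all rat genes. After quantile normalization they were 12.6% in mice, against 10.8%, and 23.9% in rats, against 19.1%.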
